A study of Mus musculus with 16 samples.

Results

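Aminoacyl-tRNA synthetases are the enzymes that join each amino acid to its tRNA and so feed the ribosome with charged tRNA. Their genes were picked by symbol, as those of the form of 1 capital letter followed by "ars", with or without an ending 1 or 2, together with the fused glutamyl-prolyl form of that spelling and *Farsa* and *Farsb*. No measured value entered the choice. The choice gave 36 of the 20622 genes in the total RNA tables, of which 19 encode enzymes of the cytosol and 17, with symbols ending in 2, enzymes of the mitochondrion. All 36 were also among the 15235 genes of the ribosome-protected fragment (RPF) tables. *Eprs*, the joint enzyme for glutamate and proline, and *Tarsl2*, a second threonyl enzyme, have symbols that the spelling misses, and they are given beside the 36 genes without being counted.

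The cells came from lung tumours of Rosa26 LSL-MYC/LSL-MYC mice, in which a Cre recombinase under the surfactant protein C promoter switched on the tumour alleles, and the line goes back to a male mouse. KM_4A2cr cells carried lentiviral Cas9 with a guide to the coding region of *Eif4a2*, an RNA helicase of translation, and were a pool of 4 clones without detectable eIF4A2 protein, whereas KM_NTC cells carried a non-targeting guide. Both lines were untreated. RPFs and cytoplasmic total RNA were read in 4 replicates of each line, 16 libraries in all, and each replicate is, per the series' design text, an independent experiment of its own day. A single lysate gave both the RPFs and the total RNA of a replicate. The comparison asks which synthetase mRNAs carried more or fewer ribosomes, and which were more or less abundant, in KM_4A2cr than in KM_NTC cells. All replicates came from the same pool of clones and the same control line. Other differences between the lines cannot be told apart from the loss of eIF4A2. In such bulk libraries, fewer cells with a transcript and less of the transcript in each cell cannot be told apart.

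In mammalian cells most amino acids have one synthetase gene for the cytosol and another, also nuclear, for the mitochondrion. *Gars* and *Kars* each make both forms, and mitochondrial glutaminyl-tRNA is made through an amidotransferase, encoded by *Qrsl1*, *Gatb* and *Gatc*, in place of a synthetase of its own. Several cytosolic enzymes sit with the scaffold proteins encoded by *Aimp1*, *Aimp2* and *Eef1e1* in the multisynthetase complex. Many cytosolic synthetase genes, but few mitochondrial ones, are known targets of ATF4, the transcription factor of the amino acid and integrated stress responses, which binds a composite C/EBP-ATF element.

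Libraries summed to between 4512403 and 9621848 RPF counts and between 5350919 and 9312622 total RNA counts, and replicate 4 was the shallowest of each group. *Eif4a2* itself had 97.7, 122, 99.9 and 389 counts scaled to library size (CPM) in RPFs in KM_NTC replicates 1 to 4, and 51.0, 88.4, 74.8 and 346 CPM in KM_4A2cr. It was lower in KM_4A2cr in 4 of 4 pairs, and replicate 4 was high in both lines, so that the lines overlapped. Its RPF log2 fold change was -0.49 ± 0.15 (standard error; edgeR adjusted p = 0.0941), and that of its total RNA was -0.18 (edgeR adjusted p = 0.504). Counts over an edited gene do not measure its protein. All 6 epithelial markers were abundant, from 233 to 2832 TPM, an abundance scaled to library size and transcript length, over the 8 total RNA libraries. The alveolar type II genes *Sftpc* and *Sftpb* were at 0 in each of them, *Nkx2-1* reached 0.12 TPM and *Lamp3* 1.63 TPM, so the defining markers of that cell type were absent or near 0. Of the 6 fibroblast markers 5 stayed under 1 TPM, and *Pdgfra* reached 3.03 TPM. The 2 endothelial markers stayed under 1 TPM, as did 3 of the 4 leukocyte markers, while the macrophage-associated *Cd68* ran from 32.5 to 220 TPM.

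Promoter windows are shown for the genes that hold the ATF4-type element, a known input of many cytosolic synthetase genes. RefSeq promoters (250 bases before to 50 bases after the start, build GRCm38.p6) were found for 26 of the 36 genes by symbol. *Cars*, *Hars*, *Lars*, *Nars*, *Rars*, *Vars*, *Wars*, *Hars2* and *Pars2* were among those not matched. The core of the C/EBP-ATF element, TGATGNAA, searched on both strands, was present in 5 of the 12 cytosolic genes with a promoter and in 0 of the 14 mitochondrial ones, against 4.51% of all 27025 genes. Each window below has 30 bases around the match nearest the start and is read 5′ to 3′ on the strand of the gene, with the match in capitals. A match in capitals that ends in ATCA is the reverse complement of the motif.
Aars, chr8:111033840-111033869, plus strand: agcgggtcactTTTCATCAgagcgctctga
Gars, chr6:55037960-55037989, plus strand: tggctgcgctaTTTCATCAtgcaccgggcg
Iars, chr13:49682126-49682155, plus strand: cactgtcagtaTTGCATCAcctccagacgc
Tars, chr15:11399655-11399684, minus strand: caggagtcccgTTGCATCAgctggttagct
Yars, chr4:129189895-129189924, plus strand: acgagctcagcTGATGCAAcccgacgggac
*Aars*, *Gars*, *Iars*, *Tars* and *Yars* encode the alanyl, glycyl, isoleucyl, threonyl and tyrosyl enzymes. A second motif, the E-box CACGTG that MYC and related factors can bind, was searched because both lines carry the MYC transgene.
Aars, chr8:111033684-111033713, plus strand: agtcaaccctgtCACGTGacactccatgtc
Farsb, chr1:78488919-78488948, minus strand: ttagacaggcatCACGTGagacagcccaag
Iars, chr13:49682049-49682078, plus strand: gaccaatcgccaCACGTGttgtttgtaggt
Tars, chr15:11399622-11399651, minus strand: tccgcctgtggcCACGTGgcgcacgcgcag
Ears2, chr7:122067048-122067077, minus strand: cgcgaaggagccCACGTGtgtgtttctagt
CACGTG was found in 4 of the 12 cytosolic and 1 of the 14 mitochondrial genes, against 8.09% of all genes, and *Aars*, *Iars* and *Tars* held both motifs. These matches describe letters in the promoter, not binding.

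Transcript levels differed widely within the family. Levels of different genes are compared only in the TPM values of the total RNA, which account for length. *Gars*, the glycyl enzyme of both compartments, was highest, with 204, 465, 300 and 133 TPM in KM_NTC replicates 1 to 4 and a mean of 275 ± 144 TPM (SD, n = 4). *Nars*, the asparaginyl enzyme, had 171, 389, 224 and 107 TPM and a mean of 223 ± 121 TPM (SD, n = 4). *Rars*, the arginyl enzyme, followed at 126 ± 58.5 TPM (SD, n = 4). These spreads overlap, and in each of the 3 genes replicate 2 was highest and replicate 4 lowest. In KM_4A2cr cells the same 3 genes had means of 233 ± 118, 180 ± 89.7 and 107 ± 54.3 TPM (SD, n = 4), and again replicate 2 was highest and replicate 4 lowest in each. That order depends on the scaling. In KM_4A2cr total RNA CPM, replicate 1 was the lowest for *Gars* (193 CPM, 258 in replicate 4) and *Nars* (160 CPM, 208 in replicate 4). *Eprs* lay at 103 ± 45.4 TPM (SD, n = 4) in KM_NTC, within the range of the cytosolic enzymes, and *Tarsl2* at 8.12 ± 4.34 TPM (SD, n = 4).

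The 3 genes with the lowest means in KM_NTC were all mitochondrial, and the third, *Cars2*, lay within the spread of the next, *Aars2* (3.42 TPM), which had the lower mean of the pair in KM_4A2cr (2.76 TPM). *Sars2*, the mitochondrial seryl enzyme, had 2.12 ± 1.2 TPM (SD, n = 4) in KM_NTC and 2.22 ± 0.903 TPM in KM_4A2cr. *Pars2*, the mitochondrial prolyl enzyme, had 2.14 ± 1.49 and 2.01 ± 1.83 TPM. *Cars2*, the mitochondrial cysteinyl enzyme, had 3.39 ± 1.56 and 3.35 ± 1.71 TPM. Not every mitochondrial enzyme was scarce. *Iars2*, named after its values were seen, had 100 ± 22.5 TPM (SD, n = 4) in KM_NTC, rank 5 among the 36 genes, and the lowest cytosolic gene, *Vars*, had 14.7 ± 7.36 TPM.

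**Figure D1:**
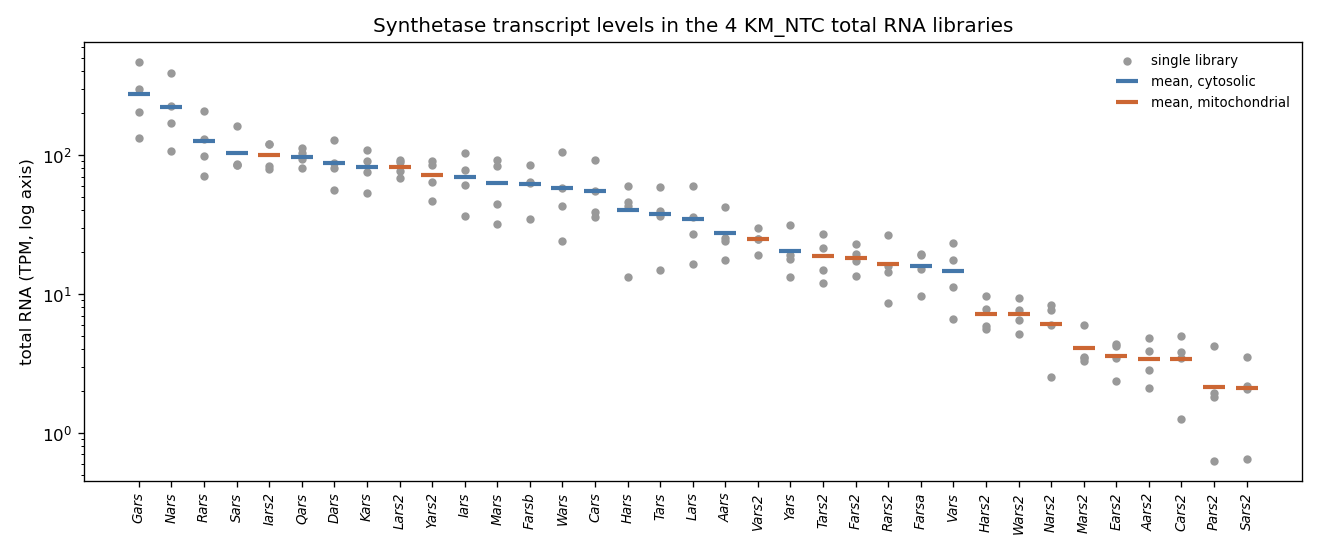
TPM in total RNA (log axis) of 35 synthetase genes in the 4 KM_NTC libraries (grey points), with the mean of each gene as a bar, blue for cytosolic and orange for mitochondrial genes. *Gars* leads at 275 TPM, *Sars2* closes at 2.12 TPM, and the orange bars lie mostly to the right, with *Iars2*, *Lars2* and *Yars2* among the abundant genes.

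RPFs of the synthetases lay slightly lower in KM_4A2cr than in KM_NTC cells across most of the family, and 1 gene, *Cars*, passed the test. Of the 35 genes with enough RPF counts to test (*Pars2* was too scarce), 0 were higher and 1 was lower at an adjusted p under 0.1 in the quasi-likelihood test of edgeR, blocked by replicate. Of all 10291 tested genes, 6.60% were higher and 3.72% lower, so 1 of 35 is no more than the background. A further 7 genes had an unadjusted p under 0.05, 8 with *Cars*. By direction alone, 33 of the 35 fold changes were below 0, against 51.1% of all tested genes. The median was -0.21, against -0.01 over all tested genes, and the range ran from -0.56 to 0.10. These genes were read in the same 8 libraries, so they are not independent observations of a direction. In no synthetase gene were the CPM of the 4 libraries of one line clear of those of the other. Of all tested genes 2.13% were separated in that way, a share so small that 0 of 35 is no departure from it.

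*Cars* (ENSMUSG00000010755.18) encodes the cysteinyl enzyme of the cytosol. It had 100, 228, 174 and 106 RPF CPM in KM_NTC replicates 1 to 4 and 75.7, 177, 133 and 71.4 CPM in KM_4A2cr, from between 265 and 2297 counts a library. Within each pair the KM_4A2cr library was the lower, by 0.40, 0.36, 0.39 and 0.57 on the log2 scale in size, and the groups overlapped. The fitted log2 fold change was -0.43 ± 0.12 (standard error; edgeR adjusted p = 0.0778). Its total RNA had 58.5, 115, 82.4 and 65.3 CPM in KM_NTC and 58.1, 106, 70.4 and 69.6 CPM in KM_4A2cr. Here the pairs lay close together and the fold change was -0.07 (edgeR adjusted p = 0.811). The translational efficiency of *Cars*, the change in RPFs relative to that in total RNA, was -0.34 (standard error 0.10) and narrowly missed the threshold (edgeR adjusted p = 0.104). Within pairs 1 to 4 it was -0.39, -0.24, -0.16 and -0.67, largest in size in pair 4. Fitted without replicate 4 it was -0.24 (edgeR adjusted p = 0.176). The RPF call of *Cars* held without replicate 4 (log2 fold change -0.38, edgeR adjusted p = 0.0108) and was lost without replicate 1, 2 or 3, where 0 synthetase genes passed the test. The log2 fold change without those replicates was -0.44, -0.45 and -0.42, close to that with all of them. Calls over all genes also dropped there, without replicate 3 to 29 higher and 3 lower among 10338 tested genes.

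The next cytosolic genes by size were *Hars* and *Mars*, neither past the threshold. *Hars* (ENSMUSG00000001380.8), the histidyl enzyme, had 80.3, 89.6, 72.2 and 37.1 RPF CPM in KM_NTC and 63.5, 64.8, 58.8 and 31.0 CPM in KM_4A2cr. Each KM_4A2cr library was below its partner, and replicate 4 was low in both lines. The log2 fold change was -0.34 ± 0.12 (standard error; edgeR adjusted p = 0.130), with -0.28 in total RNA. *Mars* (ENSMUSG00000040354.15), the methionyl enzyme that also charges the initiator tRNA, had 263, 536, 575 and 257 RPF CPM in KM_NTC and 234, 383, 407 and 238 CPM in KM_4A2cr. Replicates 2 and 3 were high in both lines and showed the wider gaps between lines. The log2 fold change was -0.32 ± 0.13 (standard error; edgeR adjusted p = 0.180), with -0.10 in total RNA.

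Among the mitochondrial genes, *Sars2*, *Ears2* and *Yars2* had the RPF fold changes of largest size, again without passing the test. *Sars2* (ENSMUSG00000070699.6) had 5.61, 5.66, 5.62 and 1.89 RPF CPM in KM_NTC and 3.62, 4.18, 3.79 and 1.08 CPM in KM_4A2cr. Replicates 1 to 3 of KM_NTC were almost level and all above KM_4A2cr, whereas replicate 4 was low in both lines and rested on 9 and 4 counts. The log2 fold change was -0.56 ± 0.20 (standard error; edgeR adjusted p = 0.139), beside 0.22 in total RNA, which held at most 32 counts a library. *Ears2* (ENSMUSG00000030871.12), the glutamyl enzyme, had 5.34, 6.25, 4.66 and 2.94 RPF CPM in KM_NTC and 3.26, 4.80, 3.93 and 1.08 CPM in KM_4A2cr. All 4 pairs were lower in KM_4A2cr, and the log2 fold change was -0.55 ± 0.23 (standard error; edgeR adjusted p = 0.186) and 0.05 in total RNA. *Yars2* (ENSMUSG00000022792.17), the tyrosyl enzyme, had 116, 78.8, 134 and 90.8 RPF CPM in KM_NTC and 109, 69.2, 84.6 and 56.0 CPM in KM_4A2cr. Its gap was widest in replicates 3 and 4, and the log2 fold change was -0.40 ± 0.15 (standard error; edgeR adjusted p = 0.144), with -0.29 in total RNA.

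**Figure D2:**
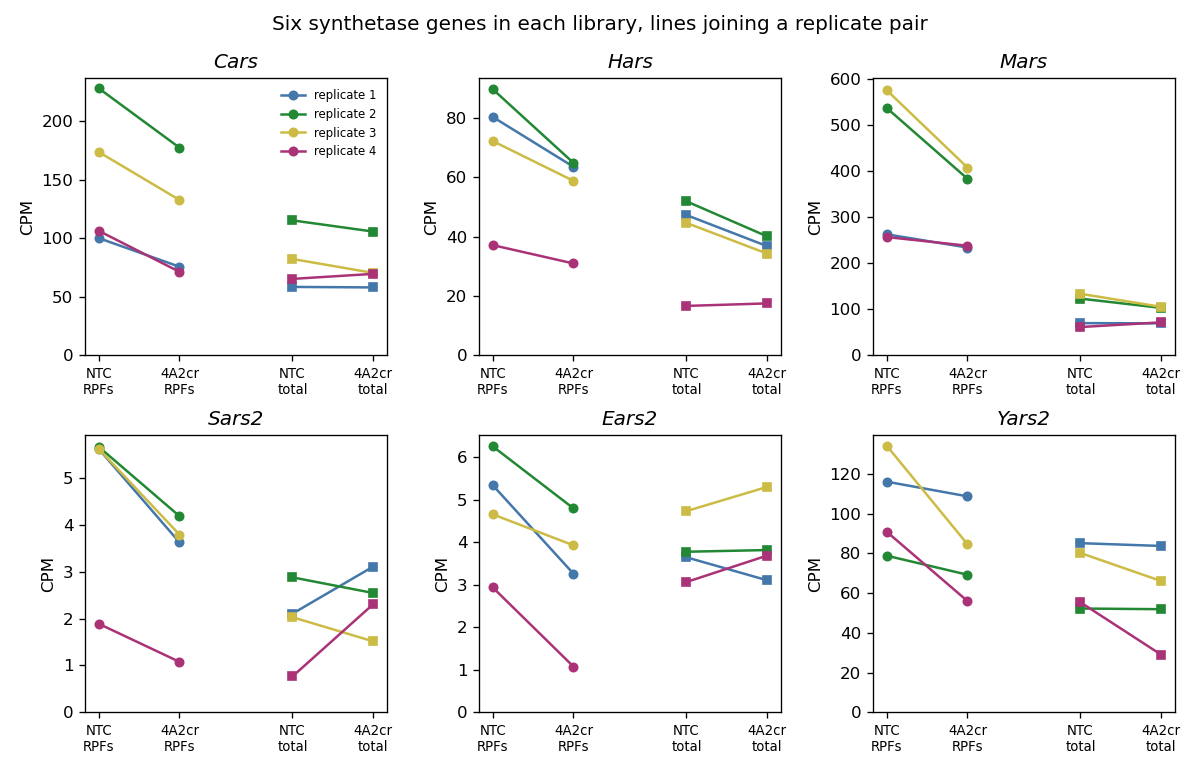
CPM of *Cars*, *Hars*, *Mars*, *Sars2*, *Ears2* and *Yars2* in RPFs (circles, left) and total RNA (squares, right), with a line joining the KM_NTC and KM_4A2cr libraries of a replicate and each axis starting at 0. Every RPF line slopes down towards KM_4A2cr, whereas lines of total RNA run both ways.

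None of the 3 most abundant synthetases passed the test. *Gars* had 458, 882, 685 and 433 RPF CPM in KM_NTC and 406, 781, 665 and 477 CPM in KM_4A2cr. Replicate 4 went the other way from the other 3 pairs, and the log2 fold change was -0.06 ± 0.12 (standard error; edgeR adjusted p = 0.787). *Nars* had a log2 fold change of -0.25 (edgeR adjusted p = 0.313) and *Rars* of -0.20 (edgeR adjusted p = 0.351), the latter below 0 in 4 of 4 pairs. *Qars*, the glutaminyl enzyme, was the cytosolic gene with a fold change above 0 (0.10, edgeR adjusted p = 0.656), and *Cars2*, at 0.04 (edgeR adjusted p = 0.993), was the mitochondrial one. *Eprs* had an RPF log2 fold change of -0.17 (edgeR adjusted p = 0.439), near those of the cytosolic genes. *Tarsl2* had 0.00 (edgeR adjusted p = 0.996) in RPFs and -0.40 (edgeR adjusted p = 0.269) in total RNA. *Pars2*, not tested in RPFs, had 5.16, 1.59, 0.685 and 1.47 CPM in KM_NTC and 4.95, 0.492, 0.842 and 0.538 CPM in KM_4A2cr.

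**Figure D3:**
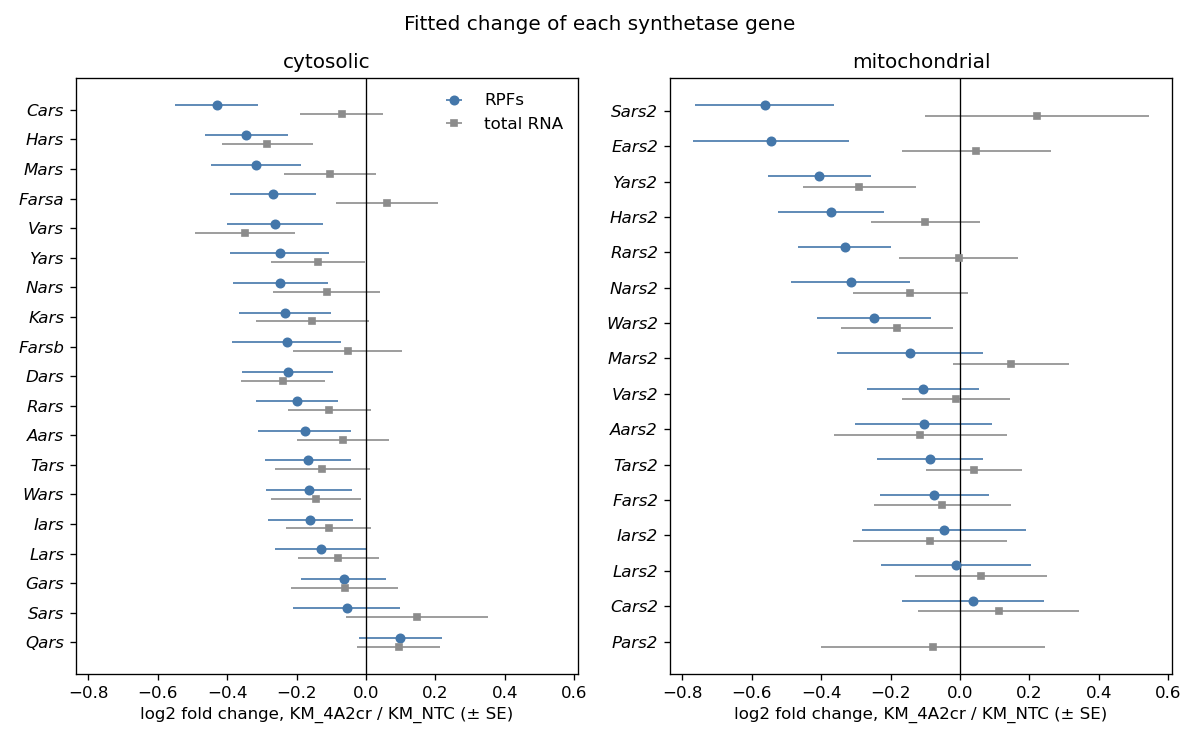
Fitted log2 fold change (KM_4A2cr over KM_NTC, ± standard error, 4 replicates a line) of 35 synthetase genes in RPFs (blue circles) and total RNA (grey squares), cytosolic genes on the left and mitochondrial genes on the right. Most RPF points lie below 0, from -0.56 to 0.10, with *Qars* and *Cars2* above it.

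In RPFs the median log2 fold change was -0.23 for the 19 cytosolic genes, and -0.18 for the 16 tested mitochondrial genes. The mitochondrial median moved with replicate 4, and without it was -0.07, beside -0.25 for the cytosolic genes. Of the 7 enzymes of the multisynthetase complex 6 were below 0 (median -0.20), as were all 12 cytosolic enzymes outside it (median -0.24). The 12 enzymes described as ATF4 targets were all below 0, with a median of -0.17, and 6 of the 7 other cytosolic enzymes were, with a median of -0.23. The 5 genes with TGATGNAA in the promoter ran from -0.25 to -0.06 (median -0.17), and the 7 cytosolic genes with a promoter but without the motif from -0.32 to 0.10 (median -0.23). By catalytic fold, the 18 class I enzymes had a median of -0.18 and the 17 tested class II enzymes of -0.23. None of these differences between groups was tested. The scaffold genes *Aimp1*, *Aimp2* and *Eef1e1* had RPF log2 fold changes of -0.08, -0.09 and -0.14, and 0 of the 3 passed the test.

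In total RNA, 0 of the 36 genes passed the test by edgeR, where 4.35% of 10880 tested genes were higher and 1.78% lower. An unadjusted p under 0.05 was reached by 1 gene, *Vars*, the valyl enzyme, whose log2 fold change was -0.35 ± 0.14 (standard error; edgeR adjusted p = 0.236). It had 25.4, 44.6, 40.2 and 18.2 CPM in KM_NTC and 20.4, 35.2, 24.6 and 18.7 CPM in KM_4A2cr, lower in replicates 1 to 3 and level in replicate 4. Of the 36 fold changes 27 were below 0, with a median of -0.08 against 0.01 over all tested genes. The median was -0.11 for cytosolic genes, of which 16 of 19 were below 0, and -0.05 for mitochondrial genes, of which 11 of 17 were. No gene had separate CPM in the 2 lines, against 1.97% of all tested genes.

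Translational efficiency, tested by edgeR as the interaction between the line and the readout over all 16 libraries, changed in 0 of 35 genes, against 1.87% higher and 1.00% lower among 9989 tested genes. *Cars*, *Mars* and *Farsa* had an unadjusted p under 0.05. *Mars* had a log2 difference of -0.21 (edgeR adjusted p = 0.305) and *Farsa*, the alpha subunit of the phenylalanyl enzyme, of -0.32 (edgeR adjusted p = 0.328). The family had 27 of 35 values below 0 and a median of -0.09, against -0.02 over all tested genes. Cytosolic genes had a median of -0.06 and mitochondrial genes of -0.09.

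The levels of the cytosolic synthetases varied between replicates, which were run on different days. Summed over the 19 cytosolic genes, synthetase RPFs took 0.358, 0.660, 0.411 and 0.222% of all counts in KM_NTC replicates 1 to 4 and 0.260, 0.506, 0.348 and 0.212% in KM_4A2cr. In CPM, which carry the scaling of the tests, the sums were 3120, 5365, 4086 and 2656 in KM_NTC and 2677, 4542, 3724 and 2575 in KM_4A2cr. By either measure replicate 2 was highest and replicate 4 lowest in both lines, and in each pair KM_4A2cr was the lower. In KM_NTC the highest replicate exceeded the lowest by a median of 2.20-fold over the cytosolic genes, from 1.45-fold to 3.76-fold, against a median of 1.95-fold over all tested genes. In KM_4A2cr the same median was 2.13-fold for the cytosolic genes, against 2.05-fold over all tested genes. In total RNA it was 1.97-fold against 1.75-fold in KM_NTC and 1.89-fold against 1.97-fold in KM_4A2cr. For the mitochondrial genes it was 1.96-fold in KM_NTC RPFs and 2.44-fold in KM_4A2cr RPFs.

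Replicate 2 was the highest for most cytosolic enzymes in both readouts and lines, and replicate 4 the lowest for most of them except in KM_4A2cr total RNA. Replicate 2 was the highest of the 4 KM_NTC libraries in RPFs for 16 of 19 cytosolic genes, against 23.2% of all tested genes, and in KM_4A2cr for 14 of 19, against 22.6%. In total RNA the counts were 16 and 13 of 19, against 21.1% and 19.4%. Replicate 4 was the lowest in RPFs for 15 of 19 in KM_NTC and 11 of 19 in KM_4A2cr, against 33.4% and 37.1%. In total RNA it was the lowest for 16 of 19 in KM_NTC, against 32.5%, but for 8 of 19 in KM_4A2cr, against 36.0%, where replicate 1 was the lowest for another 8. Replicate 4 lay below the mean of replicates 1 to 3 by a median log2 difference of -0.76 for the cytosolic genes in KM_NTC RPFs and -0.62 in KM_4A2cr, where the medians of all tested genes were 0.00 and -0.05. The mitochondrial genes summed to 0.0638, 0.0772, 0.0764 and 0.0584% of RPF counts in KM_NTC and 0.0605, 0.0737, 0.0663 and 0.0330% in KM_4A2cr. Replicate 4 of KM_4A2cr was clearly the lowest of those 8 libraries. In summed CPM it was so too, with 622, 661, 711 and 401 CPM in KM_4A2cr replicates 1 to 4. The KM_NTC sums were 555, 627, 759 and 699 CPM, so by CPM replicate 1, and not replicate 4, was the lowest in KM_NTC.

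**Figure D4:**
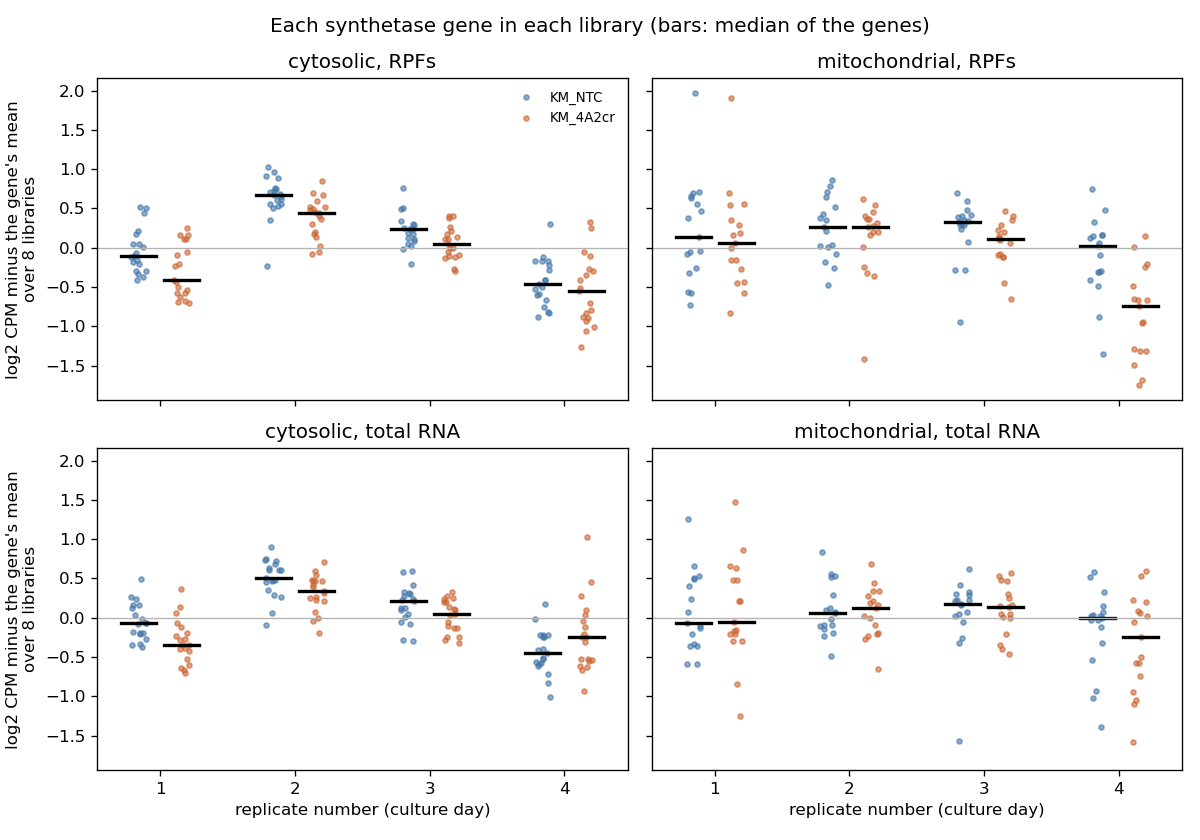
Log2 CPM of each synthetase gene minus its own mean over the 8 libraries of a kind, by replicate, for KM_NTC (blue) and KM_4A2cr (orange), with the median of the genes as a black bar. The cytosolic genes peak in replicate 2 in both lines, their RPFs are lowest in replicate 4, and the mitochondrial RPFs of KM_4A2cr replicate 4 are lower than those of its KM_NTC partner.

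Pair 4 differed from the other pairs. For cytosolic genes the median log2 difference between lines in RPFs was -0.26, -0.25, -0.12 and -0.11 in pairs 1 to 4, and in total RNA it was -0.31, -0.19, -0.06 and 0.22. In pair 4, 15 of the 19 cytosolic genes had more total RNA in KM_4A2cr. The within-pair translational efficiency of the cytosolic genes in pair 4 had a median of -0.33, with 17 of 19 below 0, where the median of all tested genes was -0.02. For mitochondrial genes the RPF medians were -0.10, -0.01, -0.19 and -0.69, and 15 of the 16 tested genes were below 0 in pair 4.

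Without replicate 4 (a setting given because pair 4 was seen to stand apart), more genes passed the test, synthetases and others. In RPFs 10 synthetase genes were then lower (*Aars*, *Cars*, *Farsb*, *Hars*, *Kars*, *Mars*, *Sars2*, *Vars*, *Yars* and *Yars2*) and 1 was higher, the abundant *Iars2* at 0.29 (edgeR adjusted p = 0.057), while 14.3% of all tested genes were lower and 19.1% higher. Of the 19 cytosolic genes 8 were lower, 0 higher and 18 below 0, with a median of -0.25, and of the 17 mitochondrial genes 11 were below 0, with a median of -0.07. In total RNA 6 genes were lower (*Farsb*, *Hars*, *Kars*, *Nars*, *Tars* and *Vars*) and *Iars2* and *Mars2* higher, against 12.0% lower and 17.8% higher overall. *Vars* had a total RNA log2 fold change of -0.46 and *Kars*, the lysyl enzyme of both compartments, of -0.37. Translational efficiency then had 0 calls among the synthetases, against 2.90% lower and 5.04% higher of all tested genes. The cytosolic median of translational efficiency turned to 0.02.

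*Iars2*, the mitochondrial isoleucyl enzyme, shows the reach of replicate 4. It had 173, 219, 265 and 241 RPF CPM in KM_NTC and 243, 250, 301 and 111 CPM in KM_4A2cr. Replicates 1 to 3 were higher in KM_4A2cr and replicate 4 was less than any other library. With all replicates its log2 fold change was -0.05 ± 0.24 (standard error; edgeR adjusted p = 0.928). In total RNA that library was again the lowest, with 170, 207, 246 and 199 CPM in KM_NTC and 228, 228, 274 and 91.5 CPM in KM_4A2cr.

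Partners of the synthetases and genes of amino acid supply were read for comparison. Over all tested genes, 6.60% were higher and 3.72% lower in RPFs, and 4.35% higher and 1.78% lower in total RNA. Single calls in lists of 15 and 22 genes are no departure from these shares. Of 15 relatives and partners, which take in *Eprs*, *Tarsl2* and the scaffolds, 0 were higher and 1 was lower in RPFs, and the same counts held in total RNA. The gene was *Dtd1*, which removes D-amino acids from mischarged tRNA, with log2 fold changes of -0.46 in RPFs (edgeR adjusted p = 0.0932) and -0.62 in total RNA (edgeR adjusted p = 0.0597), below 0 in 4 of 4 pairs in both. *Dtd1* is on chromosome 2, where the RPF log2 fold changes of 833 tested genes had a median of -0.21 and 10.2% were lower, and 0 of the 36 synthetase genes lie on that chromosome. Medians of the other chromosomes, which carry the synthetase genes, were not taken. Of the 22 tested ATF4 and amino acid supply targets 1 was higher in RPFs, the lipoprotein receptor gene *Vldlr* (0.83, edgeR adjusted p = 0.0195), and 0 were lower. Their median was -0.21 with 17 of 22 below 0, and it was -0.07 in total RNA with 12 of 23 below 0. *Cebpb*, *Chac1* and *Trib3* of this list are also on chromosome 2, with RPF log2 fold changes of -0.30, -0.45 and -0.40. *Vldlr* does not take part in amino acid supply.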

How the data were processed

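RPF files, as the authors deposited them, hold counts over the coding sequence of 1 transcript a gene (GENCODE vM27), after trimming with Cutadapt, alignment with BBmap and collapsing of duplicates with UMI-tools 1.0.1. Total RNA files, as deposited, hold expected counts and TPM per isoform from Bowtie2 2.3.5.1 and RSEM 1.3.3. Tool versions are from the submitters' processing notes. Expected counts were summed per gene and rounded, and TPM were summed per gene.

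Tests used R 4.3.3 and edgeR 4.0.16 (limma 3.58.1 loaded) with filterByExpr, TMM scaling, line and replicate number as terms, and Benjamini-Hochberg adjustment over all tested genes at a threshold of 0.1. CPM are TMM-scaled. Differences within pairs are of log2 CPM with a prior count of 2. RPFs and total RNA were scaled separately, so a change of all RPFs or all mRNA leaves no trace. The replicate numbers pair the libraries by lysate and day: deviations of same-numbered libraries from their line means correlated at 0.575 to 0.782 in RPFs and 0.611 to 0.756 in total RNA. Code was tested on simulated data first, with log2 changes of 1 in 200 genes. Of the calls at the threshold, 15.6% in RPFs, 9.41% in total RNA and 11.7% in translational efficiency were unchanged genes. Smaller changes, such as those of the synthetases, were not simulated.

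The genes, lists and tests were chosen with earlier results of these data known. Genes were named if they passed a test, if they were among the 3 cytosolic or 3 mitochondrial genes with the largest size of RPF fold change, or among the 3 highest or 3 lowest by TPM. *Eprs*, *Tarsl2* and *Eif4a2* were added. *Qars*, *Vars*, *Aars2*, *Iars2*, *Farsa*, *Dtd1*, *Vldlr*, *Cebpb*, *Chac1*, *Trib3* and the genes called without replicate 4 were named after their values were seen. Promoters and chromosome names are from RefSeq GRCm38.p6, another build than the files use. Alternatives were no replicate block, DESeq2 1.42.0, other scalings and filters, a threshold of 0.05, each replicate left out, and the RPF isoform only in total RNA. Some items are not reported here by name; the family counts include them.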

Additional observations from a re-analysis of the deposited data

Results flagged for a closer look

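In each line and kind of library, the 4 replicates of the named genes were checked for a value far from the other 3, by the gap to the nearest value as a share of the whole range (Dixon's test, 95% limit). Of 74 groups 6 were past the limit, and chance gives about 1 in 20. *Pars2* was high in KM_4A2cr replicate 1, both in RPFs (ratio 0.9216; 4.95 CPM against at most 0.842) and in total RNA (ratio 0.9292; 6.71 against at most 1.89). *Sars2* was low in RPFs of KM_NTC replicate 4 (ratio 0.9878; 1.89 CPM against at least 5.61). *Eif4a2*, the edited gene, was high in replicate 4 in RPFs of KM_NTC (ratio 0.9161; 389 CPM) and of KM_4A2cr (ratio 0.8729; 346 CPM), and in total RNA of KM_NTC (ratio 0.8905; 524 CPM). Of the 6 values, 4 were of replicate 4.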

How the results depend on the processing

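The count of synthetase genes called in RPFs, 1 with all replicates, was 0 at a threshold of 0.05. It was 8 with library size as the only scaling, and 0 to 11 with a replicate left out, the 11 without replicate 4. With library size only, calls over all 10291 tested genes also rose, to 482 higher and 1137 lower. Without the replicate block the synthetase count was 0, as for all 10291 tested genes. *Cars* then had a log2 fold change of -0.41 (adjusted p = 0.998 by edgeR). Over its alternatives the adjusted p of *Cars* in RPFs ran from 0.0108 to 0.998. In total RNA the count, 0, was 3 with library size only and 0 to 8 with a replicate left out. With library size only, 262 of all 10880 genes tested in total RNA were higher and 868 lower. In translational efficiency the count, 0, was 1 (*Cars*) without a filter on low counts, with a mean of 50 counts required, and with the RPF isoform only. Other alternatives gave the counts above. Scaling by library size only moved the median of all genes to -0.14 in RPFs, and the cytosolic RPF median to -0.36.

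The RPF count below 0 (alternatives chosen after seeing the data) stayed between 29 and 35 of the genes tested. The mitochondrial median in total RNA, -0.05, was -0.003207 without the block, -0.082 by DESeq2, -0.095 with upper-quartile scaling, -0.21 with library size only, and -0.085 to -0.007724 with a replicate left out.

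For single genes 28 of 496 fold changes turned sign, none of them past the threshold with all replicates. *Cars2* in RPFs became -0.0006174 (upper quartile) and -0.11 (library size only), and ran from -0.040 to 0.14 with a replicate left out. *Tarsl2* in RPFs became -0.003867 (DESeq2), -0.037 (upper quartile), -0.14 (library size only), -0.007722 (no filter) and -0.003158 (mean of 50 counts), and ran from -0.19 to 0.14 with a replicate left out. In total RNA *Cars* became 0.025 with the RPF isoform only, and with library size only *Cars2* became -0.036 and *Ears2* -0.11. With a replicate left out the total RNA values ran from -0.043 to 0.20 for *Cars2*, -0.007724 to 0.13 for *Ears2*, -0.20 to 0.050 for *Gars*, -0.26 to 0.001328 for *Nars* and -0.29 to 0.13 for *Pars2*. Translational efficiency ran likewise from -0.13 to 0.006369 for *Cars2*, -0.083 to 0.056 for *Eprs*, -0.071 to 0.078 for *Gars*, -0.074 to 0.014 for *Hars* and -0.17 to 0.024 for *Nars*, and *Gars* became -0.00247 without the block and -0.009532 with a mean of 50 counts. Genes of a few counts a library, such as *Sars2*, *Ears2*, *Cars2* and *Pars2*, are the least precise here.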
